A study of Homo sapiens with 6 samples.

Results

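Most histone variants come from genes that lie apart from the large histone clusters and are transcribed outside DNA replication as well. The genes described here are H2AZ1, H2AZ2, H2AX, H3-3A, H3-3B, H1-10 and MACROH2A1, which older tables list as H2AFZ, H2AFV, H2AFX, H3F3A, H3F3B, H1FX and H2AFY. They were taken by symbol, and 7 of 7 were found among the 57773 Ensembl gene IDs of the deposited table. RPE1 is an immortalised line derived from human retinal pigment epithelium. Treated cells received 2.5 µM Nutlin-3, which blocks the binding of p53 by the ubiquitin ligase MDM2, for 24 h. Control cells received the solvent DMSO for the same time. Poly(A) RNA was sequenced from 3 libraries per group. The labels name 3 replicates and do not say that they were separate cultures, and the p-values below therefore speak only of variation among these 6 libraries, some or all of which may be technical.

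Most histone genes sit in clusters, are switched on for DNA replication, and give transcripts that end in a stem-loop without a poly(A) tail. Variant genes mostly give ordinary polyadenylated transcripts and supply chromatin outside replication as well. H2A.Z marks nucleosomes beside active promoters, H2AX is phosphorylated around DNA breaks, H3.3 replaces H3 in transcribed genes and at telomeres, macroH2A carries a large extra domain and is frequent in silent chromatin, and linker histones close the nucleosome and compact the fibre. In cells that leave the cycle, most replication-coupled histones are no longer made, and variants are a main part of the supply that remains.

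The library sizes behind the RPKM (reads per kilobase and per 1 M reads of that size) were 30.4 to 35.8 M in Nutlin-3 and 29.8 to 42.3 M in DMSO. Recovered reads summed to 33.4, 38.3 and 32.7 M in Nutlin-3, above the sizes of 31.6, 35.8 and 30.4 M. In DMSO they summed to 42.6, 29.5 and 32.6 M, near the sizes of 42.3, 29.8 and 32.4 M. The sizes are thus not plain sums of these reads, and the groups differ in this. The limma and voom tests below both rest on these sizes, and the reason was not tested. CDKN1A, the p53 target that encodes p21, averaged 60.5 ± 2.34 RPKM in Nutlin-3 and 8.36 ± 0.463 RPKM in DMSO libraries (mean ± SD, n = 3 each). The cells carried the epithelial keratins KRT18, at 70.8 ± 2.58 RPKM in Nutlin-3 and 40.6 ± 2.18 RPKM in DMSO, and KRT8. The pigment epithelium regulator OTX2 was present at 2.60 ± 0.174 RPKM in Nutlin-3 and 3.18 ± 0.240 RPKM in DMSO. RPE65, which defines mature pigment epithelium, had 0 to 1 reads in Nutlin-3 and 1 to 2 reads in DMSO libraries, and the leukocyte gene PTPRC had 1 to 6 and 2 to 6 reads in Nutlin-3 and DMSO.

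All 7 variant genes were lower with Nutlin-3, and they fell by very different amounts. H2AZ1 fell to 36.6% of its DMSO level, H2AX to 47.7%, H1-10 to 54.8%, H2AZ2 to 55.0%, H3-3B to 76.5%, H3-3A to 89.7% and MACROH2A1 to 92.9%. Each of the 7 passed an adjusted p of 0.05 by limma, and in each the 3 Nutlin-3 libraries lay below the 3 DMSO libraries. Of all 12212 genes tested, 51.6% passed in either direction, 22.5% fell, and 27.4% had every Nutlin-3 library below every DMSO library. The calls of H3-3A and MACROH2A1 were the least secure, as described below with their values. The libraries are bulk, so fewer cells in a phase with high levels and less RNA per cell cannot be told apart.

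**Figure D1:**
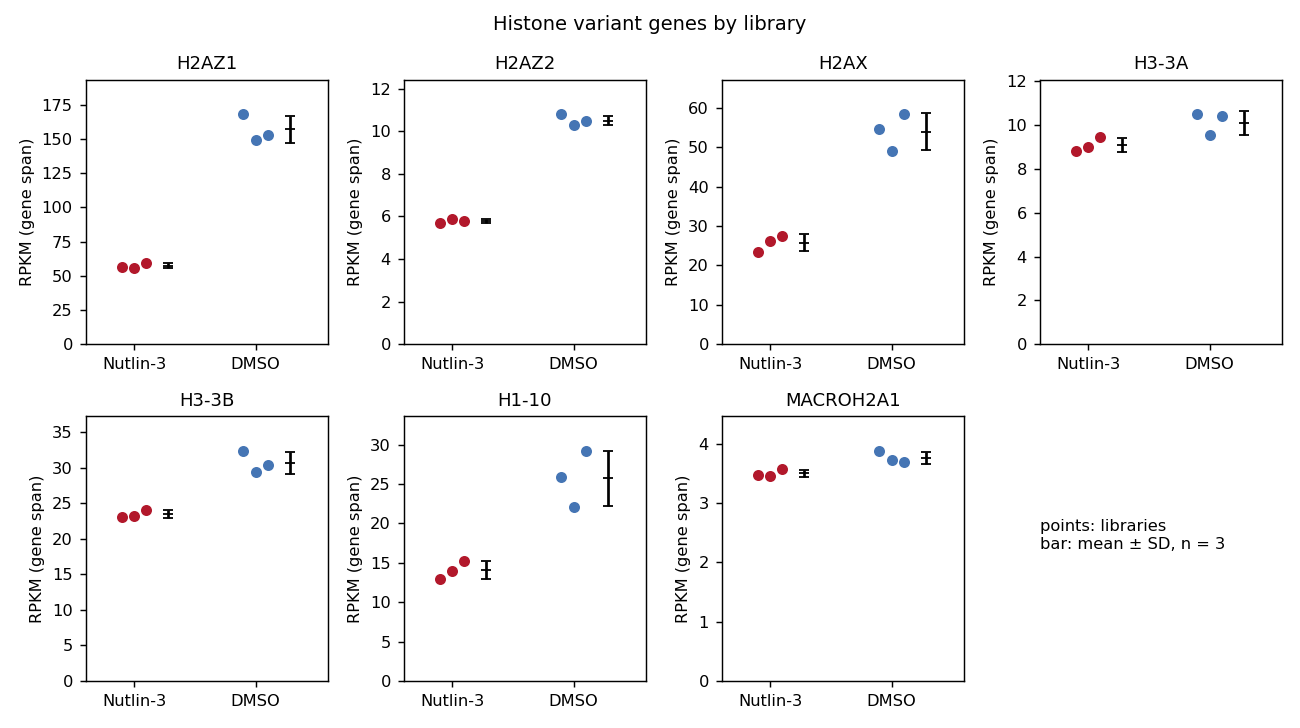
Deposited RPKM (per kilobase of whole gene span) of the 7 variant genes, one point per library, with the mean and SD of 3 libraries beside each group. The groups do not overlap in any panel, with a wide gap for H2AZ1 (56.0 to 59.6 RPKM in Nutlin-3, 149 to 168 RPKM in DMSO) and a narrow one for MACROH2A1 (3.45 to 3.57 RPKM in Nutlin-3, 3.69 to 3.88 RPKM in DMSO).

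H2AZ1 and H2AZ2 encode the proteins H2A.Z.1 and H2A.Z.2, which differ in a few residues. H2AZ1 stood at 56.7, 56.0 and 59.6 RPKM in Nutlin-3 replicates 1, 2 and 3, against 168, 149 and 153 RPKM in DMSO replicates 1, 2 and 3. The Nutlin-3 libraries were tightly grouped and every one lay far below the lowest DMSO library. Its log2 fold change was -1.44 (SE 0.054, limma adjusted p = 5.33e-05), and only 0.311% of the tested genes had a lower value. H2AZ2 stood at 5.70, 5.88 and 5.77 RPKM in Nutlin-3, against 10.8, 10.3 and 10.5 RPKM in DMSO libraries. Its spread was small in both groups, and the fall of 0.81 on the log2 scale (SE 0.027, limma adjusted p = 4.89e-05) was smaller than that of H2AZ1. Exons of the antisense gene H2AZ1-DT cover 6.23% of the exon length of H2AZ1. The whole of H2AZ1-DT held 5 to 9 reads in Nutlin-3 and 9 to 13 in DMSO libraries.

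The question of whether both H2A.Z genes moved by the same amount was put to the difference of their log2(RPKM + 0.5) values in each library. That difference, H2AZ1 minus H2AZ2, was 3.21, 3.15 and 3.26 in Nutlin-3, against 3.91, 3.79 and 3.81 in DMSO libraries. The groups did not overlap, and the change between them was -0.63 (2-sided exact permutation p = 0.1, the smallest that 3 against 3 libraries allow). Counted per kilobase of exon, H2AZ1 made up 83.9 ± 0.537% of the sum of both H2A.Z genes in Nutlin-3 and 88.7 ± 0.425% in DMSO libraries (SD, n = 3 each). The exon length merges all basic transcripts of a gene, 1 for H2AZ1 (979 bases) and 8 for H2AZ2 (4749 bases together). The share and the sum that follows therefore depend on which H2AZ2 forms are present, and H2AZ2 may come out too low. The sum of both genes stood at 161 ± 4.28 RPKM over exon length in Nutlin-3 and 416 ± 24.5 in DMSO, so it came to 38.7% of its DMSO level.

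The coding starts of both genes are shown because the proteins are nearly alike while the transcripts can be told apart by short reads. The first 60 coding bases are given from GENCODE 29 transcripts, together with the matching stretch of the pseudogene H2AZP3. Capitals mark bases that differ from H2AZ1.
H2AZ1: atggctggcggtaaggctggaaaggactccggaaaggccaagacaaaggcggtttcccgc
H2AZ2: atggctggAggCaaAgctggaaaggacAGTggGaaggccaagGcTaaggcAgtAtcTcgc
H2AZP3: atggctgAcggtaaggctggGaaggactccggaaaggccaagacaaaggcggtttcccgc
H2AZ2 differs from H2AZ1 at 12 of the 60 bases and H2AZP3 at 2 of them. No 50-base stretch of the H2AZ1 transcript occurs in H2AZ2, while 6.45% of such stretches occur in H2AZP3. H2AZP3 was listed at 5.33 ± 0.381 RPKM in Nutlin-3 and 15.1 ± 0.497 RPKM in DMSO, with a log2 fold change of -1.42 (limma adjusted p = 5.67e-05), and its reads cannot be told apart from those of H2AZ1 over the shared stretches. The 7 annotated copies of H2AZ1 together held 1.47 to 1.67% of the summed reads in Nutlin-3 and 1.51 to 1.72% in DMSO libraries.

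H2AX encodes the H2A variant whose phosphorylated tail recruits repair factors to DNA breaks. It stood at 23.5, 26.3 and 27.5 RPKM in Nutlin-3, against 54.6, 49.1 and 58.4 RPKM in DMSO libraries. Relative to its mean, its spread was wider than that of the H2A.Z genes, but the highest Nutlin-3 library was far below the lowest DMSO library. The log2 fold change was -1.05 (SE 0.086, limma adjusted p = 3.68e-04), and 1.56% of tested genes had a lower value. H2AX has a single exon and gives both a stem-loop and a polyadenylated transcript, and these poly(A) libraries read the polyadenylated form. Tested on recovered reads, its log2 fold change was -1.07 (limma voom adjusted p = 1.80e-10). Of its 50-base stretches 0.319% occur in another gene.

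H1-10 encodes H1.10, also called H1x, the most divergent of the somatic linker histones. It stood at 13.0, 14.0 and 15.2 RPKM in Nutlin-3, against 25.9, 22.1 and 29.2 RPKM in DMSO libraries. The DMSO libraries were widely spread, with an SD of 3.55 RPKM around a mean of 25.7, and still lay above every Nutlin-3 library. Its log2 fold change was -0.84 (SE 0.114, limma adjusted p = 2.15e-03). On the opposite strand, exons of H1-10-AS1 cover 22.9% of the exon length of H1-10, and that RNA fell too, to 0.353 ± 0.0344 RPKM in Nutlin-3 against 0.695 ± 0.0545 RPKM in DMSO (log2 fold change -0.49, limma adjusted p = 7.26e-04, and -0.99 by limma voom on reads). Whether the authors counted by strand is not given in the sources used here, so reads from the overlap may belong to either gene.

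Promoters of the 4 genes that fell the most, and of H3-3B for comparison, are shown as the 250 bases before the RefSeq start on the gene's own strand, with coordinates of GRCh38.p14. Capitals mark matches, on either strand, to the CCAAT box (CCAAT or ATTGG), to the cell cycle homology region CHR (TTTGAA, which reads TTCAAA on the other strand, or TTCGAA), an element bound by the DREAM complex in cell cycle genes, and to an E2F motif (TTNGCGC or GCGCNAA). No matches to different motifs overlap.
H2AZ1, chr4:99950276-99950525, minus strand: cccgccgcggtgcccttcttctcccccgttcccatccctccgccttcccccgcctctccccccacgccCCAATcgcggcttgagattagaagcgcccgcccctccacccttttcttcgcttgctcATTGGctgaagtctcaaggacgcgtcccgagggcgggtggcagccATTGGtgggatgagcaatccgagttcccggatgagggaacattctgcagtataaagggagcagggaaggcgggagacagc
H2AX, chr11:119095466-119095715, minus strand: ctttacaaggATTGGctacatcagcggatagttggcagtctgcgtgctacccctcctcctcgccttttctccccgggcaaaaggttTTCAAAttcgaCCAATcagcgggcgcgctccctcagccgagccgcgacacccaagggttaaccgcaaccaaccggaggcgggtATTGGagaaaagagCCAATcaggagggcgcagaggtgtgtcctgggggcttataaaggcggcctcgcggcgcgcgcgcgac
H1-10, chr3:129316287-129316536, minus strand: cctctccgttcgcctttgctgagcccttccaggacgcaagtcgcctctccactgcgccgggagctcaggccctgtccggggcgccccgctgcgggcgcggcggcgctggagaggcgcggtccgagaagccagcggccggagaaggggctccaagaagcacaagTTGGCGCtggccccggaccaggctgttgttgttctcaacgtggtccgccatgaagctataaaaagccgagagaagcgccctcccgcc
H2AZ2, chr7:44848088-44848337, minus strand: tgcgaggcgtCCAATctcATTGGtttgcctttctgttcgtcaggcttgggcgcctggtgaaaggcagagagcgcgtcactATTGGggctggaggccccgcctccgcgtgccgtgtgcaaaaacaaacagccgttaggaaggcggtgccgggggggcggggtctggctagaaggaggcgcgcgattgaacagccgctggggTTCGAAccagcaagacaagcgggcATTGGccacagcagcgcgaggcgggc
H3-3B, chr17:75779780-75780029, minus strand: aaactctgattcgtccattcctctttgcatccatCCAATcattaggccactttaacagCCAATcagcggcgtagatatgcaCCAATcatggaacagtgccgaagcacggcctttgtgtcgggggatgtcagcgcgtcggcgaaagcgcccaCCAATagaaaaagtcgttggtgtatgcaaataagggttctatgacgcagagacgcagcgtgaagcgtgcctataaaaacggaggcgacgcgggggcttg
The window of H2AZ1 held 3 CCAAT boxes, and those of H2AX, H2AZ2 and H3-3B held 4 each. At least 3 such boxes occur in 2.93% of the 35116 RefSeq promoter windows of this length, and at least 4 in 0.874%. A CHR match stood at -164 to -159 in H2AX (TTCAAA) and at -50 to -45 in H2AZ2 (TTCGAA), counted from the start, and 14.3% of all windows hold one. H1-10 held no CCAAT box and 1 E2F match at -87 to -81, a motif found in 6.6% of windows. No CHR match stood in the windows of H2AZ1, H1-10 and H3-3B, nor in the 4 RefSeq windows of H3-3A (0 or 1 CCAAT box each) and the 2 of MACROH2A1 (0 and 2 CCAAT boxes), which are not printed. A match of letters describes the window and is not a measured binding site.

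H3-3A and H3-3B encode the same protein, H3.3, from different transcripts. H3-3A lies on chromosome 1, with its first RefSeq promoter window at chr1:226061581-226061830 of GRCh38.p14. H3-3B stood at 23.1, 23.2 and 24.1 RPKM in Nutlin-3, against 32.4, 29.4 and 30.4 RPKM in DMSO libraries. The groups were well apart, with a log2 fold change of -0.38 (SE 0.044, limma adjusted p = 1.25e-03). H3-3A stood at 8.82, 9.02 and 9.45 RPKM in Nutlin-3, against 10.5, 9.53 and 10.4 RPKM in DMSO libraries. Its highest Nutlin-3 library and its lowest DMSO library nearly touched, and the log2 fold change was -0.15 (SE 0.048, limma adjusted p = 0.0463). Leaving out any 1 library other than DMSO replicate 2 ended the call (adjusted p from 0.0527 to 0.125). By its recovered reads H3-3A changed by -0.16 (limma voom adjusted p = 4.99e-03).

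The difference H3-3A minus H3-3B on log2(RPKM + 0.5) was -1.34, -1.32 and -1.31 in Nutlin-3, against -1.58, -1.57 and -1.50 in DMSO libraries. Again the groups did not overlap, with a change of 0.23 (2-sided exact permutation p = 0.1, the smallest possible). Per kilobase of exon H3-3A made up 27.9 ± 0.250% of the reads of both genes in Nutlin-3 and 24.8 ± 0.607% in DMSO libraries (SD, n = 3 each). The sum of both genes came to 79.7% of its DMSO level. Reads at the copies of either gene were left out of these shares and this sum, which depend on how shared reads were placed.

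H3-3A has many pseudogene copies, and the coding starts show why its reads are hard to place. The first 60 coding bases follow, with capitals for bases that differ from H3-3A. H3P6 is a processed pseudogene, and H3-5 is a gene copied from H3-3B that encodes an H3.3-like protein.
H3-3A: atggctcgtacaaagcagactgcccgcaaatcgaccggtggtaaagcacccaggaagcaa
H3P6: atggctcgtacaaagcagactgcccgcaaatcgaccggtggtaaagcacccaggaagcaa
H3-3B: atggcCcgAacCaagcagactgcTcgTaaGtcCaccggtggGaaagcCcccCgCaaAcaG
H3-5: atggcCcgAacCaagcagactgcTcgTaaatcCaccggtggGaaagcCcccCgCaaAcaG
H3P6 is identical to H3-3A over its annotated transcript of 411 bases, while H3-3B differs at 13 of the 60 bases shown. Of the 50-base stretches of H3-3A transcripts, 11.7% occur in transcripts of other genes, and for H3-3B 7.29% occur in H3-5. H3P6 was listed at 56.7 ± 3.51 RPKM in Nutlin-3 and 63.6 ± 1.51 RPKM in DMSO (log2 fold change -0.17, limma adjusted p = 0.0424, a call lost with adjusted p up to 0.110 when any 1 library other than Nutlin-3 replicate 2 was left out). The change of H3P6 was -0.11 without Nutlin-3 replicate 1 and -0.29 after quantile normalization. The 27 annotated copies nearest to H3-3A held 46.3 to 48.2% of the summed reads in Nutlin-3 and 47.0 to 48.4% in DMSO libraries, so the level of H3-3A itself is uncertain. With their reads added, the change was -0.17 (SE 0.039, limma voom adjusted p = 1.71e-03), and with H3-5 added to H3-3B it was -0.40 (SE 0.038, limma voom adjusted p = 1.25e-07). These sums were chosen after the data were seen.

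**Figure D2:**
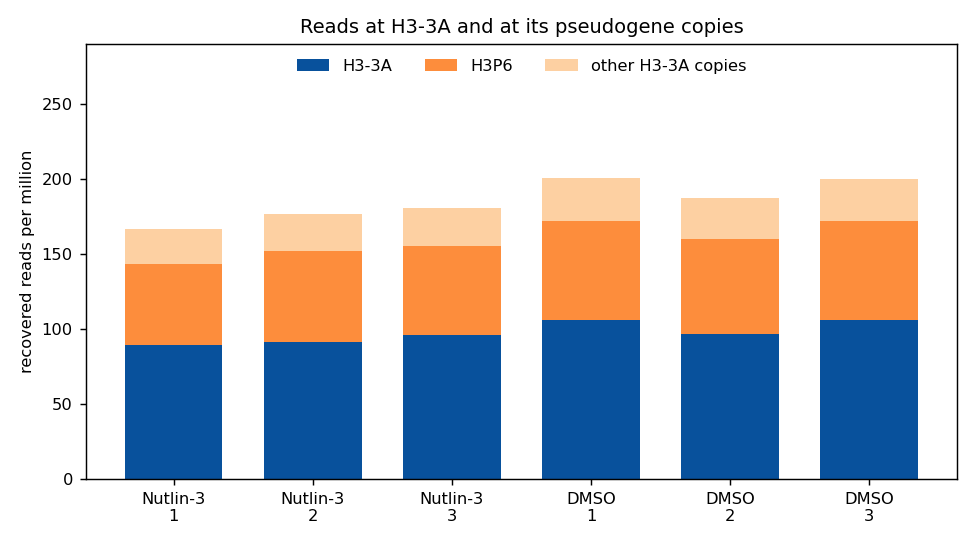
Recovered reads per 1 M reads (library size of the deposited RPKM) at H3-3A, at its pseudogene H3P6 and at its other copies, as stacked bars, one per library. H3P6 held 53.9 to 60.5 reads per 1 M in Nutlin-3 and 63.2 to 66.0 in DMSO libraries, beside 89.5 to 95.9 and 96.8 to 106 for H3-3A in Nutlin-3 and DMSO.

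MACROH2A1 encodes macroH2A1, whose macro domain can bind ADP-ribose in one splice form, and the table does not separate the forms. The gene lies on chromosome 5, with its first RefSeq promoter window at chr5:135399232-135399481 of GRCh38.p14. It stood at 3.48, 3.45 and 3.57 RPKM in Nutlin-3, against 3.88, 3.72 and 3.69 RPKM in DMSO libraries. The gap between the groups was about as wide as the range within them. Its log2 fold change was -0.09 (SE 0.028, limma adjusted p = 0.0395), and the call was lost when any 1 of the 6 libraries was left out (adjusted p from 0.0572 to 0.129). On the recovered reads, 7160 to 8148 in Nutlin-3 and 7323 to 10818 in DMSO, the change was -0.11 (limma voom adjusted p = 0.0128). Among all tested genes 31.0% had a lower log2 fold change, so MACROH2A1 lay inside the main body of the table. Exons of the antisense gene PITX1-AS1 cover 17.5% of its exon length, and the gene held 24 to 34 reads in Nutlin-3 and 21 to 47 in DMSO libraries. Exons of a further antisense gene, ENSG00000270021, cover 16% of the MACROH2A1 exon length. Reads of that antisense gene were not examined, so any part of them in the MACROH2A1 value was not tested.

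**Figure D3:**
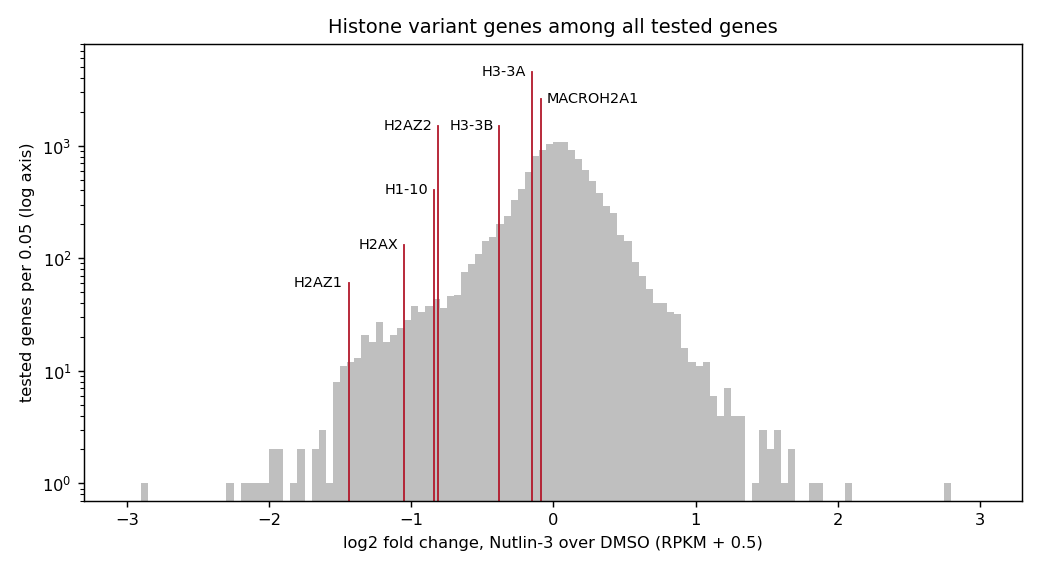
Histogram of log2 fold changes (Nutlin-3 over DMSO, on RPKM + 0.5) of the 12212 tested genes in bins of 0.05, on a log count axis, with a line for each variant gene whose height carries no value. H2AZ1 at -1.44, H2AX at -1.05, H1-10 at -0.84 and H2AZ2 at -0.81 lie in the lower tail, while H3-3A at -0.15 and MACROH2A1 at -0.09 lie in the main body.

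The deposited RPKM divide reads by the whole gene span, introns included, so levels of different genes were compared after dividing the recovered reads by exon length instead. That length merges the exons of all basic transcripts, so a gene with several forms can come out too low. Whether reads in introns were counted is not given, so the order of genes is approximate. On this scale H2AZ1 led in both groups, at 135 ± 4.38 RPKM in Nutlin-3 and 369 ± 23.5 in DMSO (SD, n = 3 each). In Nutlin-3 libraries it was followed by MACROH2A1 at 76.5 ± 1.39 and H3-3B at 75.8 ± 1.88, whose ranges overlapped. Then came H3-3A at 29.3 ± 1.05, H2AZ2 at 25.9 ± 0.396 and H2AX at 25.8 ± 2.08, with H1-10 last at 14.1 ± 1.14 RPKM over exon length. The ranges of H2AZ2 and H2AX overlapped as well. In DMSO libraries the order was H3-3B at 99.2 ± 4.95, MACROH2A1 at 82.3 ± 2.19, H2AX at 54.0 ± 4.68, H2AZ2 at 47.2 ± 0.972, H3-3A at 32.7 ± 1.70 and H1-10 at 25.7 ± 3.55 RPKM over exon length, with no overlap between neighbours. H3-3A, which ranked below H2AX and H2AZ2 in DMSO, stood above both in Nutlin-3 libraries when its copies were not counted. Those copies held 47.0 to 48.4% of the summed reads in DMSO libraries. The change of rank therefore depends on how shared reads were placed and may not hold with the copies counted.

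**Figure D4:**
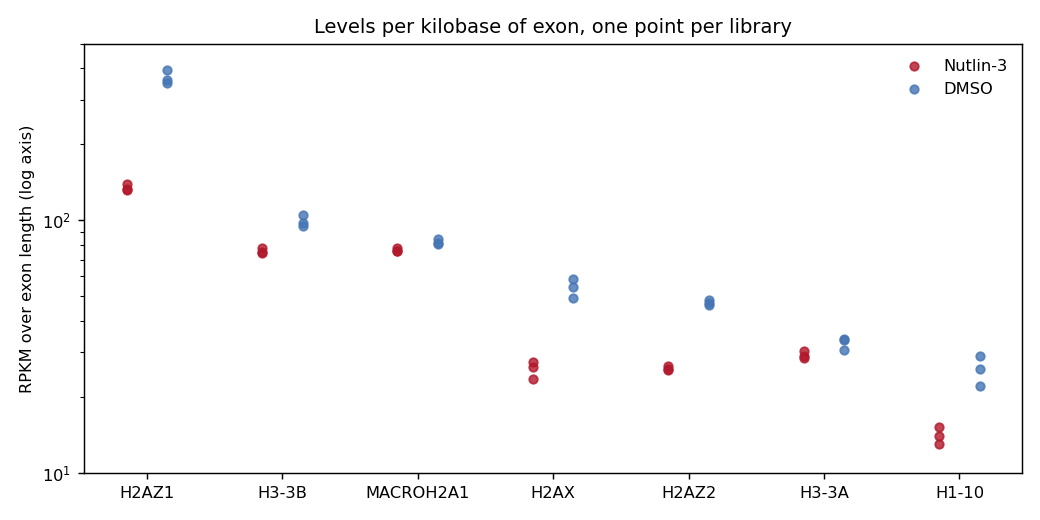
Levels of the 7 variant genes as RPKM over exon length (log axis), one point per library, with genes ordered by their DMSO mean. H2AZ1 is highest in both groups, and the gap to the next gene is smaller in Nutlin-3 (135 against 76.5) than in DMSO (369 against 99.2).

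For each variant gene the 3 genes with the nearest profile over the 6 libraries were sought, by the root mean square difference of log2 values centred on each gene's mean. For H2AZ1 they were CKAP2L, MAD2L1 and ASPM, at 0.0182 to 0.0199, with log2 fold changes of -1.42, -1.46 and -1.44. For H2AZ2 they were PHGDH, MCM8 and DTL, at 0.0198 to 0.0231, with changes of -0.79, -0.78 and -0.80. H2AX had more distant neighbours in CDC20P1, DEPDC1P1 and CDKN2C, at 0.0576 to 0.0666, and so had H1-10 in UBE2S, HAUS6P1 and RANBP1, at 0.0766 to 0.0813. H3-3B was nearest to WDR5, PM20D2 and SAE1 (0.0138 to 0.0157), H3-3A to TSN, YOD1 and MKKS (0.0108 to 0.0174), and MACROH2A1 to XPO6, HK2 and BCAP29 (6.61e-03 to 7.57e-03). These distances describe 6 libraries, of which each group holds 3, and genes that move by a like amount come out near each other. The added 0.5 RPKM shrinks the change of genes with low RPKM, so some of these profiles part when reads are tested. By limma voom PHGDH, MCM8 and DTL changed by -1.32, -1.61 and -1.70, against -0.86 for H2AZ2. CDC20P1, DEPDC1P1 and CDKN2C changed by -1.51, -2.00 and -1.35 on that scale, against -1.07 for H2AX. CKAP2L, MAD2L1 and ASPM changed by -1.85, -1.69 and -1.85, against -1.45 for H2AZ1. HAUS6P1 changed by -1.17, against -0.87 for H1-10, while UBE2S at -0.92 and RANBP1 at -0.88 stayed near it. WDR5, PM20D2 and SAE1 changed by -0.48, -0.49 and -0.49, against -0.39 for H3-3B. MKKS at -0.25 and HK2 at -0.17 moved by more than 1.5 times their change in RPKM, beside -0.16 for H3-3A and -0.11 for MACROH2A1.

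Of 10 further variant genes outside the clusters, 9 were in the table and 4 passed the minimum mean of 0.5 RPKM. Among these 3 fell and 1 rose (22.5% fell and 29.1% rose over all genes tested), with a median log2 fold change of -0.38, against 0.024 over all genes tested. H3-5 fell by 0.47 on the log2 scale (limma adjusted p = 3.32e-03), and CENPA, the H3 variant of centromeres, by 0.30 (limma adjusted p = 3.73e-04). H2AJ, an H2A variant studied in senescent cells, rose to 2.54 RPKM in Nutlin-3 against 1.98 RPKM in DMSO (log2 fold change 0.29, limma adjusted p = 3.72e-03). MACROH2A2, the paralog of MACROH2A1, was below the minimum at 0.396 RPKM in Nutlin-3 and 0.456 RPKM in DMSO, and changed by -0.20 when reads were tested (limma voom adjusted p = 2.29e-03). It was named after its values were seen. Of the 5 linker histones of the clusters, H1-2 alone passed the minimum, and it rose to 8.93 RPKM in Nutlin-3 against 5.42 RPKM in DMSO (log2 fold change 0.67, limma adjusted p = 1.22e-03). It held 193 to 225 reads in Nutlin-3 and 114 to 157 in DMSO libraries. Poly(A) libraries read only polyadenylated transcripts of such a clustered gene, so the rise need not hold for all H1-2 mRNA.

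A further list holds genes that place or remove H2A.Z, in the SRCAP, EP400 and INO80 complexes and ANP32E. Of 18 in the list 13 were tested, 7 fell, 1 rose and 5 did not pass, with a median log2 fold change of -0.10. Over all genes tested 22.5% fell and 29.1% rose. By limma voom on the recovered reads 12 of 18 fell and 1 rose, while 23.9% of all 20881 genes tested that way fell and 25.6% rose. ANP32E, a chaperone that takes H2A.Z out of chromatin, fell to 3.58 RPKM in Nutlin-3 against 7.20 RPKM in DMSO (log2 fold change -0.92, limma adjusted p = 1.13e-04). ACTL6A, an actin-related subunit, fell by 0.61 on the log2 scale and BRD8, a bromodomain subunit of the EP400 complex, by 0.39. ZNHIT1, a subunit of the SRCAP complex, rose to 5.84 RPKM in Nutlin-3 against 4.61 RPKM in DMSO (log2 fold change 0.31, limma adjusted p = 1.24e-03).

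Of 8 genes of H3.3 deposition 6 were tested, 5 fell and 1 rose, beside 22.5% and 29.1% of all genes tested, with a median log2 fold change of -0.19. By limma voom on the recovered reads 5 of 8 fell and 3 rose, beside 23.9% and 25.6% of all genes. DEK, a chromatin protein that can act as an H3.3 chaperone, fell to 5.19 RPKM in Nutlin-3 against 8.96 RPKM in DMSO (log2 fold change -0.73, limma adjusted p = 1.77e-04). ASF1A, which hands H3 and H4 to the HIRA complex, fell by 0.24 on the log2 scale, and DAXX, the partner of ATRX, by 0.22. ATRX, a chromatin remodeller, was below the minimum at 0.495 RPKM in Nutlin-3 and 0.439 RPKM in DMSO and rose by limma voom (log2 fold change 0.18, adjusted p = 1.72e-03). UBN2, a relative of the HIRA complex subunit UBN1, was below it too, at 0.493 RPKM in Nutlin-3 and 0.434 RPKM in DMSO, and rose likewise (0.19, limma voom adjusted p = 3.39e-03). ATRX and UBN2 were named after their values were seen. CABIN1, a subunit of the HIRA complex, stood at 0.679 RPKM in Nutlin-3 and 0.607 RPKM in DMSO (log2 fold change 0.09, limma adjusted p = 0.0435). Its call was lost when any 1 library other than DMSO replicate 2 was left out (adjusted p from 0.0699 to 0.123) and under median-of-ratios scaling (adjusted p = 0.109). On reads its change of 0.17 passed (limma voom adjusted p = 1.83e-03).

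Of 12 genes of H2AX phosphorylation and its readers 10 were tested, 8 fell, none rose and 2 did not pass, beside 22.5% that fell and 29.1% that rose over all genes tested, with a median log2 fold change of -0.38. By limma voom on the recovered reads 9 of 12 fell and 1 rose, beside 23.9% and 25.6% of all genes tested that way. The gene that rose is PPM1D, a phosphatase that removes the mark from H2AX, at 0.316 RPKM in Nutlin-3 and 0.235 RPKM in DMSO (log2 fold change 0.43, limma voom adjusted p = 7.99e-06). SSRP1 and SUPT16H form the histone chaperone FACT, which exchanges H2AX. SSRP1 fell to 13.9 RPKM in Nutlin-3 against 24.2 RPKM in DMSO (log2 fold change -0.78, limma adjusted p = 6.97e-05), and SUPT16H fell to 4.47 RPKM in Nutlin-3 against 7.03 RPKM in DMSO (log2 fold change -0.60, limma adjusted p = 1.91e-04). MDC1, the reader of phosphorylated H2AX, fell by 0.58 on the log2 scale. The kinase ATM stood at 0.708 RPKM in Nutlin-3 and 0.719 RPKM in DMSO and did not pass (log2 fold change -0.01, limma adjusted p = 0.729). PPM1D and ATM were named after their values were seen.

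**Figure D5:**
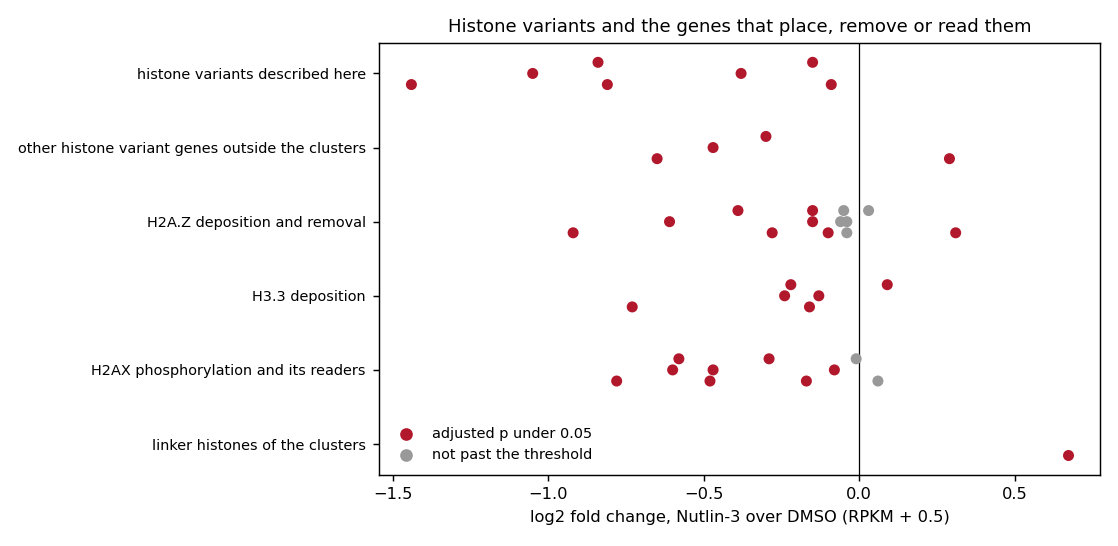
Log2 fold changes (Nutlin-3 over DMSO, on RPKM + 0.5) of the tested genes of each list, one point per gene, red where the limma adjusted p was under 0.05. Points left of 0 were lower in Nutlin-3; the 7 variant genes reach from -1.44 to -0.09, and H1-2, the tested linker histone of the clusters, lies at 0.67.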

How the data were processed

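The authors deposited RPKM, with 1 column per library, and every column name matched 1 library title (0 columns unmapped). The submitters' processing notes name build hg19, edgeR, TopHat2 and CASAVA 1.8.2, with no role stated. Per the labels' protocols, poly(A) libraries came from a stranded TruSeq kit. Not given in the sources used here were the counter, its annotation and any use of strand. Members, gene lists and tests were chosen with earlier results of these data known.

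Low RPKM values times the GENCODE 29 gene span were whole reads within 0.01 in 90.1% of cases, against 25.3% with exon length, so the RPKM rest on the whole gene span. Reads were recovered for 27538 genes with that span and for 8824 from the ratios between libraries, where a common factor may be missed. One read in a gene of 10 kb equals 0.00237 to 0.00336 RPKM. These spans give a low RPKM to genes with long introns, and the exon lengths used to compare genes come from the basic GENCODE 29 transcripts, which use another build than the table.

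The test was limma 3.58.1 (R 4.3.3) with a mean-variance trend and a single term for the drug, run on log2(RPKM + 0.5) of every gene whose mean reached 0.5 RPKM, with Benjamini-Hochberg adjustment over all genes tested. Fold changes on this scale understate those of low genes, and percentages of the DMSO level are ratios of mean RPKM. limma voom on recovered reads (mean of at least 10) was an alternative. Named genes are the 7 variants, up to 3 called genes with the largest change and up to 2 moving against most called genes per list, the 3 nearest profiles per variant, CDKN1A, and copies by sequence; others are marked. One gene that this rule names is not reported here. Of 60 symbols in the lists, the 7 variants included, 59 were in the table. Copies are pseudogenes or retrogenes by symbol whose transcript aligned with blastn 2.17.0 over at least 80% of its length at an identity of at least 80%. All 7 variants matched a RefSeq promoter. Replicates differed by more than sampling noise (chi-square per gene 1.87 to 2.74 in Nutlin-3 and 2.13 to 5.12 in DMSO), so each library counts as 1. The limma and voom steps were tested on simulated data.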

Additional observations from a re-analysis of the deposited data

How the results depend on the processing

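H2AZ1, H2AZ2, H2AX, H3-3B and H1-10 kept their direction and their call under each of 14 or 15 alternatives, with largest adjusted p-values of 0.00303, 0.00305, 0.00430, 0.0114 and 0.0110 by limma. H3-3A passed in 8 of 15 and MACROH2A1 in 6 of 14, always with a fall; the cause was not tested. Without a filter the change of H3-3A was -0.15 (limma adjusted p = 0.0939) and that of MACROH2A1 -0.09 (adjusted p = 0.0521). With single libraries left out the change ranged from -0.19 to -0.13 for H3-3A and from -0.11 to -0.07 for MACROH2A1. In those fits 5 or 6 of the 7 variant genes passed, beside 5088 to 5560 of all genes. The minimum mean was applied anew in each fit, so the number tested could differ from 12212.

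Deviations of libraries with the same replicate number correlated at -0.02, 0.01 and 0.02 over genes, so no shared deviation by number was seen. The labels do not say whether the numbers pair libraries, and this check cannot exclude it. With the replicate number as a block, 5 of 7 variant genes passed, with H3-3A at -0.15 (limma adjusted p = 0.0756) and MACROH2A1 at -0.09 (adjusted p = 0.112). That fit called 5135 of all 12212 genes tested, in place of 6296. The same block gave an exact sign-flip p of 0.25, the smallest for 3 pairs, for both differences between paralogs (-0.63 and 0.23).

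limma voom on recovered reads tested 20881 genes and called 10321 (4985 lower and 5336 higher). It called 13 of 18 H2A.Z deposition genes in place of 8 of 13, which changes both the genes admitted and the test. Without a filter 10 of 18 were called, beside 7726 of all 36363 genes above 0. With median-of-ratios scaling 11 of 13 were called, beside 6422 of all 12212 genes tested. With a minimum mean of 1 RPKM, 5 of 6 H2AX-related genes were called in place of 8 of 10, because fewer were tested. In that setting 4886 of all genes were called, out of fewer tested genes than the 12212 of the main test. Without a filter 3 of 4 clustered linker histones were called in place of 1 of 1, and of these 2 fell and 1 rose. Median-of-ratios scaling gave 3206 genes that rose and 3216 that fell, against 3551 and 2745. Of 613 values for 45 other genes 566 kept their call and direction, and 0 reversed.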
